A study of Homo sapiens with 12 samples.

Results

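Respiratory complex I (NADH:ubiquinone oxidoreductase) was examined in RNA recovered with the RNA-binding protein HuR from MiaPaCa-2 cells, an established human pancreatic ductal adenocarcinoma (PDAC) line. Members were the protein-coding genes whose symbols start with NDUF, each read from the brightest array cluster that carries its symbol alone. Of 46 such symbols in RefSeq, 41 were measured among 33458 genes, and these are 33 subunits and 8 assembly factors (symbols starting NDUFAF). The other 5 were not analysed here.

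HuR (gene ELAVL1) is an RNA-binding protein with affinity for U-rich and AU-rich elements, and ribonucleoprotein immunoprecipitation (RNP-IP) recovers it with the RNA that it holds. Cells were treated for 16 h with olaparib at 10 µM (a PARP inhibitor) or with gemcitabine at 1 µM (a nucleoside analog). Other cells received DMSO as the vehicle, for which no time is stated. Cytoplasmic extract of each treatment was subjected to HuR-IP or to IgG-IP, in which nonspecific IgG recovers background RNA, and the RNA was hybridised to Clariom D arrays. This gave 12 arrays in 6 groups of 2, called biological replicates by the labels, which do not state how they were prepared, so p-values measure the spread between these arrays. All values are log2 signals that the authors normalized, and they describe relative level within an array and not the amount of RNA recovered.

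Complex I oxidizes NADH, passes the electrons to ubiquinone and pumps protons across the inner mitochondrial membrane. It is L-shaped. The N module holds the NADH-binding flavin and the first iron-sulfur clusters, the Q module reduces ubiquinone, and the proximal and distal membrane arms move protons. The core of the membrane arm is made from mitochondrial DNA (the ND genes). All NDUF subunits are made from nuclear genes, translated in the cytosol and imported. A smaller set of core subunits carries the catalysis, accessory subunits surround it, and NDUFAF proteins help to build the complex without remaining in it.

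Array 2 of the DMSO HuR-IP group and array 2 of the gemcitabine HuR-IP group stood apart from the other 4 HuR-IP arrays. On the first principal component of genes with a mean signal above 6, which held 63.4% of the variance, the 6 IgG-IP arrays lay between -80.3 and -72.1, the other HuR-IP arrays between 107 and 140, and these 2 at -27.6 and -20.8. Results are therefore also given without them. Of 7 epithelial markers, KRT18 and KRT8 were bright (mean log2 signals of 14.0 and 10.1), whereas EPCAM (3.29) and CDH1 (3.46) were near the antigenomic background probes (medians of 2.88 to 3.01). KRT7 (7.35), MUC1 (5.87) and KRT19 (5.58) lay between. The mesenchymal gene VIM was at 12.4, and the 4 measured acinar and islet markers were between 3.07 and 4.95. The fibroblast marker COL1A1 was at 9.45. Of the immune markers, CD68 was at 6.82, CD3E at 5.67 and PTPRC at 3.91, and the endothelial marker PECAM1 was at 3.72. The nuclear RNA MALAT1 was at 11.5, although the extracts were cytoplasmic.

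Complex I mRNAs gave weaker signals with HuR-IP than with IgG-IP. Averaged over treatments, 38 of 41 members were lower and 0 were higher at an adjusted p under 0.05 (limma, Benjamini-Hochberg over all genes), where 7.51% of all genes were lower and 2.39% higher. At an unadjusted p under 0.05 still 0 members were higher, against 8.02% of all genes. Of protein-coding genes, 8.6% were lower, and of the 7114 with a mean signal above 6, a level that 40 of 41 members passed, 18.5% were. The median log2 fold change of the 33 subunits was -2.94 (range -5.08 to 1.66), that of the 8 assembly factors -1.81 (-3.13 to -0.38), and that of protein-coding genes with a mean signal above 6 was -0.57. The count of lower members was 35 without the 2 HuR-IP arrays that stood apart, and it was between 30 and 38 when each array was left out in turn. Of the 38 members, 29 were called lower in every such fit. The count was 33 after cyclic loess and 35 after centring the arrays on the brighter genes, scalings that changed the split over all genes from 2512 lower and 800 higher to 1660 and 1828, and to 1726 and 2290.

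**Figure D1:**
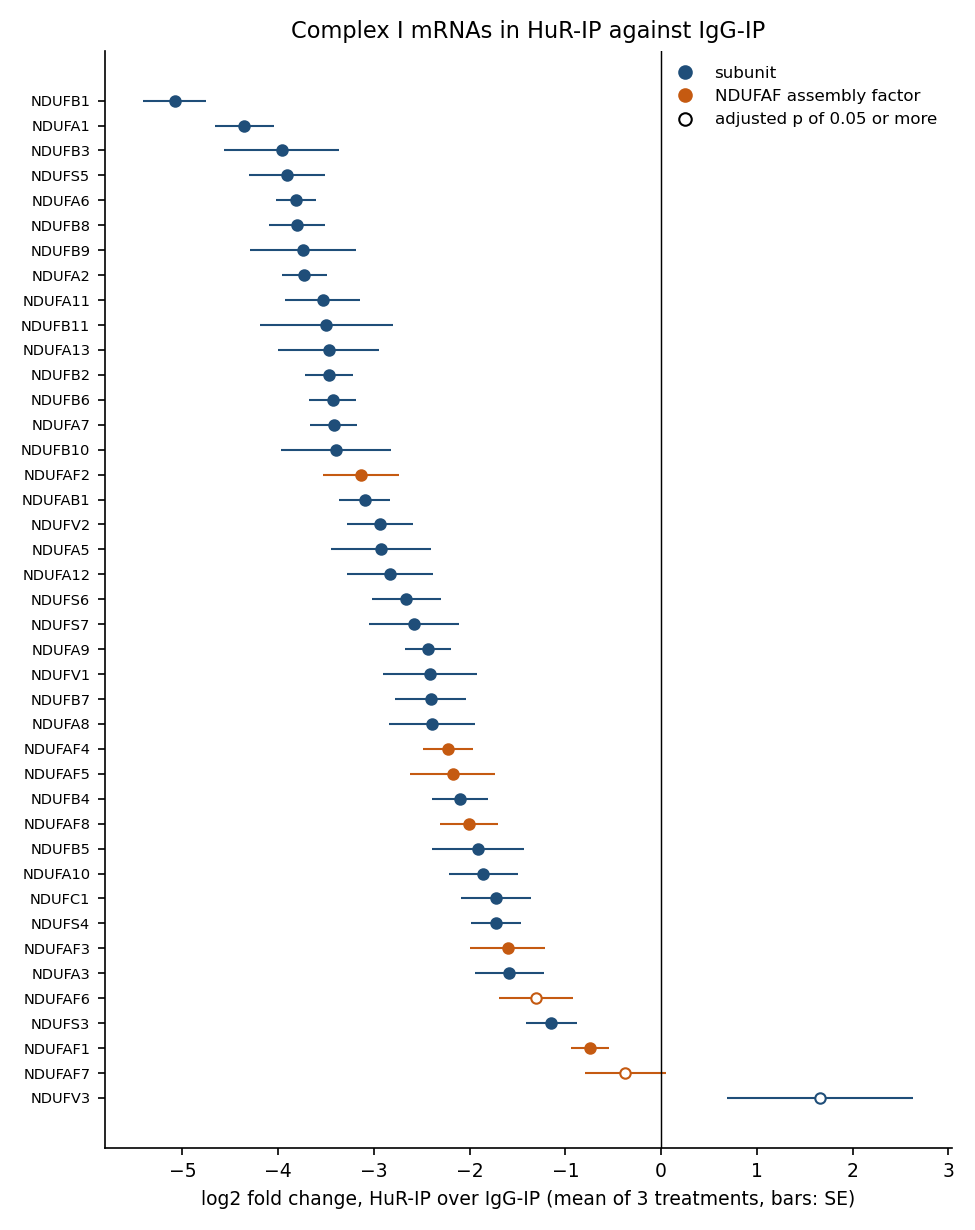
Log2 fold change (HuR-IP over IgG-IP, mean of 3 treatments) on the x axis for the 41 members on the y axis, with bars of 1 SE from the model. Filled points passed an adjusted p of 0.05: 38 members lie below 0 and filled, and NDUFV3, NDUFAF7 and NDUFAF6 are open.

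**Figure D2:**
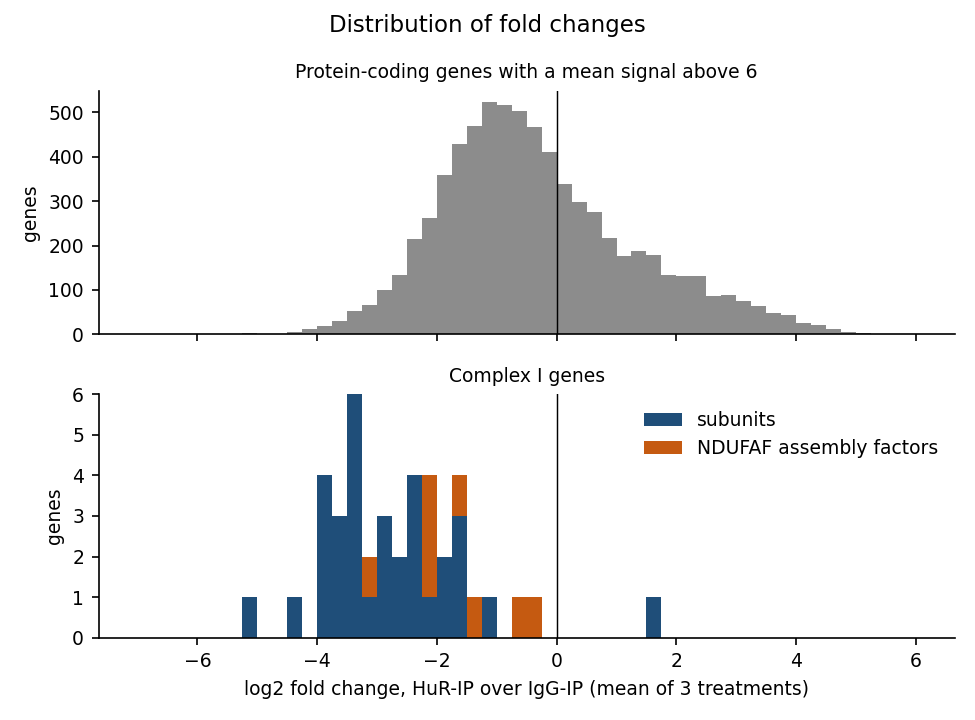
Number of genes (y axis) by log2 fold change in bins of 0.25 (x axis, mean of 3 treatments), for 7114 protein-coding genes with a mean signal above 6 (top) and for the 41 complex I genes (bottom). The medians were -0.57 for the former, -2.94 for subunits and -1.81 for assembly factors.

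The lowest subunit was NDUFB1, a small accessory protein of the distal membrane arm. Its signals were 17.16 and 15.97 on the DMSO IgG-IP arrays, 16.88 and 16.93 with olaparib, and 17.61 and 17.15 with gemcitabine. On the HuR-IP arrays they were 12.51 and 11.38 in DMSO, 12.14 and 11.50 with olaparib, and 12.46 and 11.25 with gemcitabine. All 6 HuR-IP arrays lay below all 6 IgG-IP arrays, with a gap of 3.46, and the fold change was -5.08 ± 0.33 (SE), or 33.8-fold lower (adjusted p = 9.29e-05, limma). A pseudogene of it, NDUFB1P1, was also bright (mean signal 9.10) and lower by a similar size (-4.27 ± 0.27), and how far their probes share RNA was not tested.

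NDUFA1, an accessory subunit of the proximal membrane arm encoded on the X chromosome, followed. Its IgG-IP signals were 18.97 and 18.53 in DMSO, 18.98 and 18.70 with olaparib, and 19.06 and 18.78 with gemcitabine. These are close to the highest signal of any gene on any array, 19.88, so the IgG-IP level may be understated. The HuR-IP signals were 15.08 and 13.36 in DMSO, 14.72 and 14.07 with olaparib, and 15.16 and 14.52 with gemcitabine. The groups did not overlap, and the fold change was -4.35 ± 0.31 (adjusted p = 0.000139, limma).

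NDUFB3, of the distal membrane arm, differed more between the arrays numbered 1 and 2. The IgG-IP signals were 13.97 and 11.46 in DMSO, 14.04 and 12.48 with olaparib, and 14.18 and 12.10 with gemcitabine. The HuR-IP signals were 9.79 and 8.17 in DMSO, 9.44 and 8.77 with olaparib, and 9.75 and 8.54 with gemcitabine. Array 2 was below array 1 for both antibodies in each treatment, the highest HuR-IP array was 1.67 below the lowest IgG-IP array, and the fold change was -3.96 ± 0.60 (adjusted p = 0.00497, limma).

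Over the 41 members, all 6 HuR-IP arrays lay below all 6 IgG-IP arrays for 32, of which 27 were subunits and 5 assembly factors, compared with 5.36% of all genes. Within every treatment, both HuR-IP arrays were below both IgG-IP arrays for 36 members, against 8.15% of all genes. The 9 members whose arrays overlapped across treatments were NDUFV1, NDUFB5, NDUFA10, NDUFC1, NDUFA3, NDUFAF3, NDUFAF6, NDUFAF7 and NDUFV3.

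NDUFV3, an accessory subunit of the N module, was the only member with a positive mean fold change. Its IgG-IP signals were 12.36 and 11.57 in DMSO, 12.36 and 11.65 with olaparib, and 12.26 and 11.16 with gemcitabine. Its HuR-IP signals were 15.54 and 11.03 in DMSO, 14.96 and 13.10 with olaparib, and 15.63 and 11.03 with gemcitabine. The 3 HuR-IP arrays numbered 1 and both olaparib arrays were above the IgG-IP arrays, and the 2 arrays that stood apart were below them. The fold change was 1.66 ± 0.97 (adjusted p = 0.355, limma). Without those 2 arrays it was 3.18 (adjusted p = 0.00369), which is the one member called higher in that fit. A second, dim cluster of NDUFV3 (mean signal 4.15) gave a difference of 0.97.

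The other subunits with the least reduction were NDUFS3 and NDUFA3. NDUFS3, a core subunit of the Q module, had IgG-IP signals of 8.01 and 6.85 in DMSO, 7.66 and 7.35 with olaparib, and 7.65 and 7.11 with gemcitabine. The HuR-IP signals were 5.999 and 6.79, 5.74 and 6.41, and 6.31 and 6.52, in the same order. They were all below the IgG-IP arrays, but by as little as 0.07, and the fold change of -1.15 ± 0.26 (adjusted p = 0.0304, limma) was not called without 7 of the 12 arrays, left out in turn (adjusted p up to 0.0877).

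NDUFA3, a small protein of the proximal membrane arm, had IgG-IP signals of 9.40 and 8.29 in DMSO, 9.20 and 8.49 with olaparib, and 9.69 and 8.44 with gemcitabine. The HuR-IP signals were 8.44 and 7.06, 7.14 and 7.14, and 7.51 and 6.72. In DMSO the groups overlapped. The fold change was -1.58 ± 0.36 (adjusted p = 0.0291, limma), and without 5 of the arrays, left out in turn, it was not called (up to 0.0862).

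By place in the complex, all 11 measured subunits of the distal membrane arm (NDUFB1 to NDUFB11) were lower, with a median of -3.47 and a range of -5.08 to -1.91. The least reduced, NDUFB5 (adjusted p = 0.0421, limma), was not called after cyclic loess or without the HuR-IP arrays that stood apart. Its call was also lost in most of the fits without each array in turn, where it was between -2.21 and -1.61. Of the subunits listed here for the proximal membrane arm, 7 of 7 measured were lower (median -2.39). The counts were 6 of 7 for the N module (-2.66) and 3 of 3 for the Q module (-2.58). NDUFA6, NDUFA7, NDUFA9, NDUFA11 and NDUFAB1 were in none of these lists, so the counts and medians leave them out. These subunits were lower too, from -3.81 (NDUFA6) to -2.43 (NDUFA9). Among the 4 measured core subunits, NDUFV2, which carries an iron-sulfur cluster, was at -2.94 ± 0.34 and NDUFS7, next to the ubiquinone site, at -2.58 ± 0.47. NDUFV1, which binds NADH and flavin, was at -2.41 ± 0.49, and its call was lost without 4 of the arrays in turn (adjusted p up to 0.0594, limma). With NDUFS3, the median of the core was -2.50, and that of the 29 accessory subunits was -3.40. Whether these groups differ was not tested.

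Of the 8 assembly factors 6 were lower, and their median of -1.81 was not tested against that of the subunits. They were also dimmer, with a median signal of 8.45 against 11.06. NDUFAF2 is a paralogue of the N-module subunit NDUFA12 and holds its place during assembly. Its IgG-IP signals were 14.52 and 13.84 in DMSO, 14.74 and 13.72 with olaparib, and 14.56 and 14.14 with gemcitabine, and its HuR-IP signals were 10.67 and 11.95, 11.16 and 9.99, and 10.67 and 12.27. It was the lowest of the assembly factors, at -3.13 ± 0.40 (adjusted p = 0.00212, limma).

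NDUFA12 itself had IgG-IP signals of 13.63 and 13.14, 13.55 and 13.26, and 13.76 and 13.60 in DMSO, olaparib and gemcitabine. Its HuR-IP signals were 10.34 and 11.88, 9.96 and 9.16, and 10.09 and 12.53. The fold change was -2.83 ± 0.44 (adjusted p = 0.00581, limma). In both paralogues the second HuR-IP arrays of DMSO and of gemcitabine were higher than the first, and all HuR-IP arrays were below all IgG-IP arrays.

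NDUFAF4, which acts early in assembly with NDUFAF3, had IgG-IP signals of 12.11 and 12.10, 11.95 and 11.68, and 11.82 and 11.39 in DMSO, olaparib and gemcitabine, and HuR-IP signals of 10.31 and 9.91, 9.96 and 8.55, and 9.77 and 9.16. Its fold change was -2.23 ± 0.26 (adjusted p = 0.00144, limma). NDUFAF1, of the complex that builds the membrane arm, had IgG-IP signals of 7.58 and 7.43, 7.23 and 7.18, and 7.82 and 7.02, and HuR-IP signals of 6.55 and 6.20, 6.30 and 7.01, and 6.87 and 6.86. Its arrays were separated by 0.01, and its fold change of -0.75 ± 0.20 (adjusted p = 0.0489, limma) was not called without 10 of the arrays in turn (up to 0.118).

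NDUFAF7, a mitochondrial methyltransferase, had IgG-IP signals of 7.28 and 6.39, 7.36 and 6.15, and 7.32 and 5.90 in DMSO, olaparib and gemcitabine. Its HuR-IP signals were 6.18 and 7.81, 5.42 and 6.02, and 5.84 and 6.90. The antibodies overlapped in DMSO and in gemcitabine, where array 2 was the higher one for HuR-IP and the lower one for IgG-IP. The fold change was -0.38 ± 0.42 (adjusted p = 0.659, limma) and turned to 0.10 after cyclic loess and 0.07 after centring on the brighter genes. NDUFAF6 was at -1.31 ± 0.39 (adjusted p = 0.0716) and was called with the replicate number as a block (adjusted p = 0.0331). NDUFAF3, NDUFAF5 and NDUFAF8 were between -2.18 and -1.60. Of these, NDUFAF3 (adjusted p = 0.0396, limma) was not called with a trended and robust prior, after cyclic loess or after centring on the brighter genes. Without each array in turn NDUFAF3 was between -1.90 and -1.31, and NDUFAF5 between -2.56 and -1.80. The call of NDUFAF3 was lost in most of these fits, and that of NDUFAF5 in some.

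**Figure D3:**
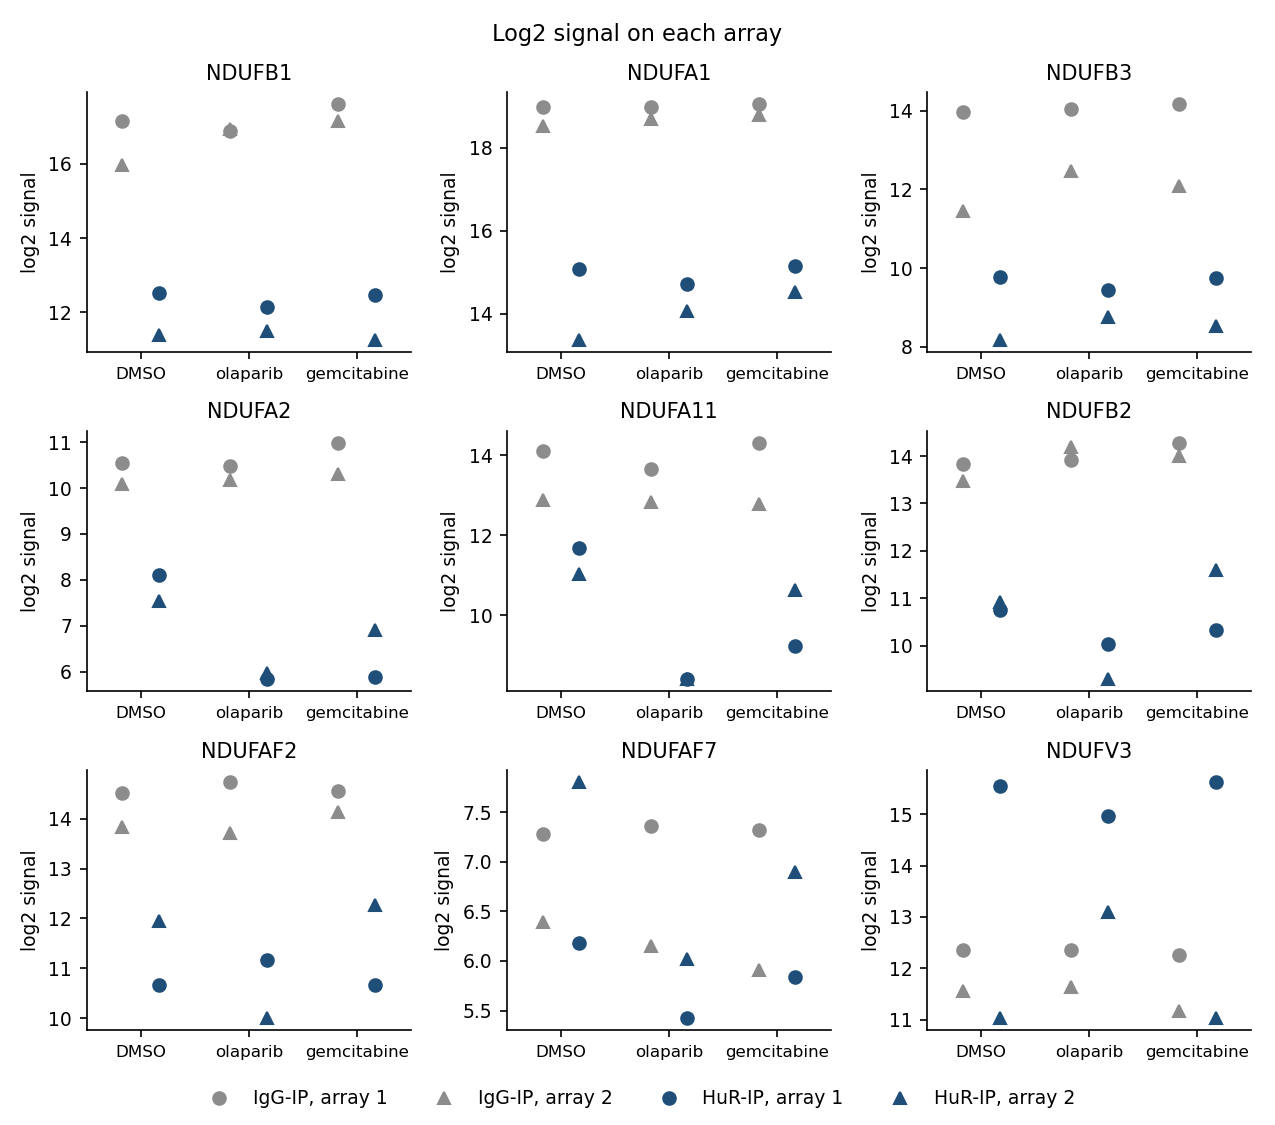
Log2 signal (y axis) of 9 named members on each of the 12 arrays by treatment (x axis), with grey points for IgG-IP and blue points for HuR-IP, circles for arrays numbered 1 and triangles for arrays numbered 2. For NDUFB1, NDUFA1, NDUFB3, NDUFA2, NDUFA11, NDUFB2 and NDUFAF2 all HuR-IP arrays lie below all IgG-IP arrays, and NDUFAF7 and NDUFV3 overlap.

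In DMSO alone, 10 subunits and 0 assembly factors were lower at an adjusted p under 0.05 (limma), against 0.478% of all genes, and 36 of 41 members had both HuR-IP arrays below both IgG-IP arrays, against 23.9%. With gemcitabine 10 subunits and 0 assembly factors were lower, against 0.977%, and 39 members had their HuR-IP arrays below, against 21.5%. With olaparib 19 subunits and 2 assembly factors (NDUFAF2 and NDUFAF4) were lower, against 3.04%, and 40 members had them below, against 30%, whereas NDUFV3 had both above. No member was called higher in a treatment, where 0.0209%, 0.0568% and 0.433% of all genes were in DMSO, gemcitabine and olaparib. None was at an unadjusted p under 0.05 either (1.79%, 2.87% and 5.6% of all genes). At that p, 4 of 8 assembly factors were lower in DMSO (5.77% of all genes), 4 in gemcitabine (7.53%) and 6 in olaparib (12.4%). The medians of the subunits were -2.49 in DMSO, -3.65 with olaparib and -3.07 with gemcitabine, and those of the assembly factors -1.49, -2.14 and -1.74.

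The counts within a treatment depended on the fit. With the replicate number as a block, 16 members were lower in DMSO, 35 with olaparib and 21 with gemcitabine, in a fit where the shares of all genes called lower also rose, to 1.18%, 6.82% and 2.26%. The DMSO count was 0 without either DMSO IgG-IP array or without the DMSO HuR-IP array 2, 1 without HuR-IP array 1, and 4 to 6 without an olaparib array or a gemcitabine IgG-IP array. With olaparib it was 6, 8, 11 and 7 without IgG-IP 1, IgG-IP 2, HuR-IP 1 and HuR-IP 2 of olaparib. With gemcitabine it was 0, 6 and 4 without IgG-IP 1, IgG-IP 2 and HuR-IP 1 of gemcitabine. Without both arrays that stood apart, the counts were 12, 28 and 17 in DMSO, olaparib and gemcitabine, beside 1.35%, 6.11% and 3.31% of all genes.

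A set of 9 subunits was lower in each of the 3 treatments, against 0.445% of all genes. These were NDUFB1, NDUFB2, NDUFB6 and NDUFB8 of the distal arm, NDUFA1 of the proximal arm, NDUFA2 of the N module, NDUFA6 and NDUFA7, and the mitochondrial acyl carrier protein NDUFAB1. NDUFA6 was at -3.41 ± 0.37 in DMSO, -4.53 ± 0.37 with olaparib and -3.49 ± 0.37 with gemcitabine. NDUFAB1 was nearly equal in the 3 treatments, at -3.17, -2.93 and -3.19 (SE 0.46). NDUFA9 was called in DMSO at an adjusted p of 0.04995 and in olaparib, and NDUFS5 in olaparib and gemcitabine.

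In DMSO and gemcitabine the median differences between same-numbered arrays were smaller in size for the arrays numbered 2. The median of the subunits was -3.00 for the arrays numbered 1 and -2.04 for those numbered 2 in DMSO, -3.84 and -2.02 in gemcitabine, and -3.50 and -3.35 in olaparib. Protein-coding genes with a mean signal above 6 had medians of -0.80 and 0.27, -1.24 and 0.26, and -1.07 and -0.83, so in DMSO and gemcitabine their numbered-2 pairs were above 0 where the subunits remained below it. In each of the 6 pairs at least 32 of 33 subunits were below 0. The assembly factors had medians of -2.01 and -1.20 in DMSO, -2.67 and -0.63 in gemcitabine, and -2.39 and -1.58 in olaparib. Signals differed by array number for both antibodies. The median signal of the subunits on arrays 1 and 2 was 12.76 and 11.57 for IgG-IP and 9.77 and 9.38 for HuR-IP in DMSO. In gemcitabine it was 12.68 and 11.76 for IgG-IP, and 9.22 and 9.74 for HuR-IP.

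**Figure D4:**
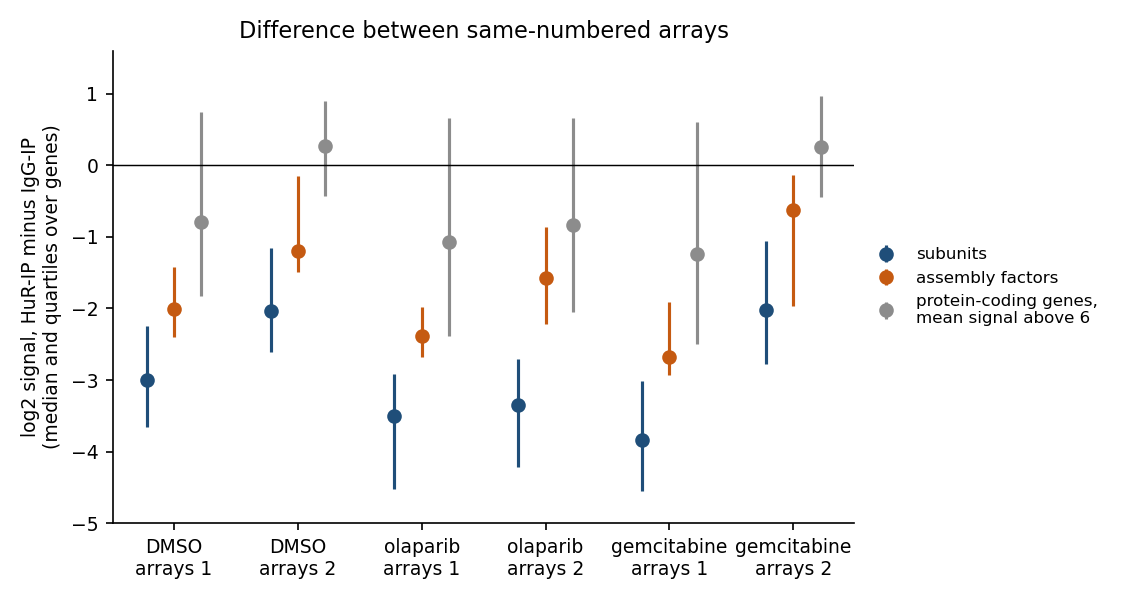
HuR-IP minus IgG-IP in log2 signal (y axis) between arrays of the same number in each treatment (x axis), with points for the median over genes and bars for the quartiles. Subunits (blue) have medians from -3.84 to -2.02, assembly factors (orange) from -2.67 to -0.63, and protein-coding genes with a mean signal above 6 (grey) from -1.24 to 0.27.

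Members did not move alike between the HuR-IP arrays of a treatment. In DMSO, 17 of 33 subunits were higher on array 2, with a median change of 0.17, and in olaparib 9 were (median -0.32). From HuR-IP array 1 to 2 in gemcitabine the subunits changed by -4.60 (NDUFV3) to 2.95 with a median of 0.66, and 24 of 33 were higher on array 2. The highest was NDUFB11, of the distal arm, at 10.76 and 13.71, with IgG-IP signals of 15.30 and 15.79. NDUFB9 (11.69 and 14.52) and NDUFA13 (8.27 and 11.08) were higher on array 2 by similar amounts, and NDUFB1 (12.46 and 11.25) and NDUFA5 (7.78 and 6.65) were lower on array 2. In olaparib, where array 2 did not stand apart, NDUFB11 was also higher on it by 2.52, NDUFB9 by 1.66 and NDUFA13 by 1.65. On the IgG-IP arrays, array 2 was below array 1 for 39 members in DMSO, 38 in gemcitabine and 36 in olaparib. The share over all genes was not computed. Protein-coding genes with a mean signal above 6 also had lower medians on IgG-IP array 2. These were 9.63 and 8.84 in DMSO, 9.69 and 8.83 in gemcitabine, and 9.49 and 8.89 in olaparib.

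The fold changes were also compared between each drug and DMSO, comparisons that share the DMSO arrays. No member differed at an adjusted p under 0.05 (limma), and neither did any other gene (0% of 33458). At an unadjusted p under 0.05, the olaparib difference was below 0 for 3 members and above 0 for 0, against 1.48% and 1.17% of all genes, and the gemcitabine difference for 1 and 0, against 0.625% and 0.888%. By sign alone, the difference was below 0 for 35 members with olaparib and 33 with gemcitabine, where it was for 57.6% and 54.8% of all protein-coding genes. Those genes were dimmer (median signal of 5.01, against 10.4 for the members), and the share among brighter genes was not computed. Centring on the brighter genes raised the fold changes by 0.75 with olaparib, 0.39 with gemcitabine and 0.20 in DMSO. The median difference was -1.20 for subunits and -0.67 for assembly factors with olaparib, and -0.37 and -0.11 with gemcitabine. The olaparib value of the subunits was -0.60 after cyclic loess and -0.65 after centring on the brighter genes. For 30 members the fold change was lowest in olaparib, a count for which the share over all genes was not computed.

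NDUFA2, an accessory subunit of the N module, was the member named in both. Its IgG-IP signals were 10.54 and 10.08 in DMSO, 10.49 and 10.18 with olaparib, and 10.99 and 10.32 with gemcitabine. Its HuR-IP signals were 8.10 and 7.54 in DMSO, 5.83 and 5.97 with olaparib, and 5.88 and 6.90 with gemcitabine. The IgG-IP arrays were near each other in all treatments, and the HuR-IP arrays of both drugs were below those of DMSO. The difference was -1.95 ± 0.58 for olaparib (unadjusted p = 0.00888 and adjusted p = 0.9998, limma) and -1.77 ± 0.58 for gemcitabine (unadjusted p = 0.0143, limma).

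NDUFA11, of the membrane arm, had IgG-IP signals of 14.12 and 12.89 in DMSO, 13.66 and 12.83 with olaparib, and 14.31 and 12.78 with gemcitabine, and HuR-IP signals of 11.68 and 11.04, 8.40 and 8.39, and 9.22 and 10.64. The olaparib difference was -2.70 ± 0.95 (unadjusted p = 0.0207, limma). NDUFB2, of the distal arm, had IgG-IP signals of 13.83 and 13.48, 13.92 and 14.20, and 14.28 and 14.01, and HuR-IP signals of 10.76 and 10.92, 10.03 and 9.29, and 10.33 and 11.60. Its olaparib difference was -1.59 ± 0.61 (unadjusted p = 0.0296, limma). In both, the olaparib HuR-IP arrays were the lowest, and the adjusted p was 0.9998.

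The reduction was also described by the span of the gene in RefSeq. The 17 members that span up to 10000 bases were all lower, with a median of -3.40, and among protein-coding genes of that span with a mean signal above 6, 39.7% were lower (median -1.28). Of 14 members over 10000 and up to 30000 bases 13 were lower (median -2.88), against 20.1%, and of 10 longer members 8 were lower (median -2.31), against 11%. Across the 41 members the correlation of log10 span with fold change was 0.28 (Pearson) and 0.30 (Spearman), and across the 7114 genes 0.21 and 0.23, where genes share arrays and are not independent replicates. Brighter members had lower fold changes (Pearson -0.45, Spearman -0.56), whereas across the 7114 genes these values were 0.02 and -0.02.

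RefSeq also lists NDUF pseudogenes, and 56 were measured. Only NDUFB1P1 and NDUFA5P11 had a mean signal above 6, and both were lower (NDUFA5P11 at -1.86 ± 0.48). The 18 members with a measured pseudogene were all lower (median -2.93), and of the 23 without one 20 were (median -2.40). NDUFA10, of the proximal arm, has 16 clusters, and the brightest is not placed on a chromosome. The 4 clusters of it above a mean signal of 6 all had a lower HuR-IP mean, with differences of -3.00 to -1.85, and the one placed on a chromosome was at -1.87.

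Promoters were read for 37 members in RefSeq (GRCh38.p14), in the 250 bases before each gene's start. Their relation to the differences between HuR-IP and IgG-IP was not tested. NRF-1 is a regulator of nuclear genes for respiration. Its site was first searched in a longer form (GCGC on both sides of A and any base), which either strand held in 5 of 30 subunits and 0 of 7 assembly factors, or 13.5% of members, against 7.65% of 15843 protein-coding promoters. The shorter letters GCGCATG were then searched and found on either strand in 4 subunits and 0 assembly factors (10.8% of members, against 5.04%). The first match of each of the 4 is shown in a 30-base window, 5′ to 3′ on the gene's strand, with the match in capitals.
NDUFA6 (chr22:42090919-42090948, minus strand): ctgtagatgagCATGCGCagcacccaccgt
NDUFB4 (chr3:120596166-120596195, plus strand): aagagcacttcGCGCATGcgcatatcaccg
NDUFS6 (chr5:1801350-1801379, plus strand): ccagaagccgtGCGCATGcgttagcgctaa
NDUFS7 (chr19:1383824-1383853, plus strand): tccggtttccgCATGCGCtccgagccgctt
In NDUFB4 a match on the other strand overlaps the one shown. These genes had fold changes of -3.81, -2.10, -2.66 and -2.58, within the range of the other subunits. The letters CCGGAAG, a core of ETS-family sites, were in 5 of 37 members (13.5%), against 11.8%. A match is a description of the letters and not of a bound site.

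Other genes of complex I were read from lists. Of 7 mitochondrially encoded ND genes, which encode the membrane core, 5 were measured. Of these, 0 were called (limma), and at an unadjusted p under 0.05, which 16% of all genes passed as lower, 2 were (ND1 and ND5). ND1 was at -0.74 ± 0.28, ND5 at -1.21 ± 0.50, ND2 at -0.99 ± 0.85, ND3 at -1.37 ± 1.33 and ND6 at 0.61 ± 0.80, with a median over the 5 of -0.99. The IgG-IP signals of ND1, from 19.32 to 19.57, were near the highest signal of any gene (19.88), so its difference may be understated. Of 12 complex I assembly factors without the NDUFAF symbol 11 were measured. Of these, 5 were lower and 0 higher (median -1.51), against 7.51% and 2.39% of all genes. TMEM126A, a membrane-arm factor, was at -3.38 ± 0.23, DMAC1 at -3.20 ± 0.24, COA1 at -1.82 ± 0.32 and DMAC2 at -1.85 ± 0.37 (adjusted p from 0.000118 to 0.018, limma).

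The former NDUFA4, now COXFA4 and counted with cytochrome c oxidase, falls outside the symbols used. Its IgG-IP signals were 15.36 and 14.87 in DMSO, 15.37 and 15.79 with olaparib, and 15.97 and 15.93 with gemcitabine. Its HuR-IP signals were 12.26 and 14.37, 12.30 and 15.13, and 12.41 and 14.99. Each array numbered 2 was closer to IgG-IP, olaparib included, and the difference was -1.97 ± 0.63 (adjusted p = 0.093, limma). COXFA4L2, its paralogue, was near background on all arrays (2.68 to 3.23).

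Nuclear-encoded subunits of the other respiratory complexes were lower too. Of 35 measured in complexes II to V, 32 were lower and 0 higher, against 7.51% and 2.39% of all genes. Their median was -2.89. By complex these were 2 of 3 in complex II, 6 of 8 in complex III, 9 of 9 in complex IV and 15 of 15 in complex V (ATP synthase). The genes with the largest statistics were SDHA (-2.84 ± 0.37) in complex II, UQCRQ (-3.97 ± 0.20) in complex III, COX6C (-5.10 ± 0.17) in complex IV and ATP5MC1 (-3.63 ± 0.19) in complex V. A difference between complex I and these complexes was not tested.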

How the data were processed

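The deposited values are log2 signals: per the labels and the methods, the authors processed the Clariom D intensities in Affymetrix Expression Console 1.4 with RMA. Summarization settings and the array's genome build are not given in the sources used here. The values were used without further scaling, so an RNA class that fills one kind of IP lowers others relatively. Clusters with 1 symbol were named through RefSeq (GRCh38.p14), and 33458 genes were tested by their brightest cluster, with no filter on dim genes. A model of 6 group means was fitted to all 12 arrays in limma 3.58.1 (R 4.3.3), tested on simulated data, with Benjamini-Hochberg adjustment over all genes.

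Whether replicate numbers pair the arrays was checked: over 15 pairs of groups, residuals of arrays with the same number correlated at 0.15 to 0.81. Within a treatment, IgG-IP and HuR-IP correlated at 0.20 in DMSO, 0.19 in gemcitabine and 0.51 in olaparib. Values between IgG-IP and HuR-IP across treatments were near these: 0.21 for DMSO HuR-IP with gemcitabine IgG-IP, and 0.46 for DMSO IgG-IP with olaparib HuR-IP. The IgG-IP groups of different treatments correlated at 0.65 to 0.68. The number thus went with a difference that IgG-IP arrays shared across treatments, for which the main fit has no term. The highest, 0.81, was for DMSO HuR-IP with gemcitabine HuR-IP, the groups of the arrays that stood apart. The check thus does not show that arrays of a treatment were paired, and the labels do not state it. Results of the blocked fit stand beside those they alter.

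The members and lists were chosen with earlier results of these data known. Values on every array were given for the 3 lowest and 3 highest subunits, the 2 lowest and 2 highest assembly factors, NDUFA12 and NDUFAF2, the former NDUFA4 and NDUFA4L2, and members past an unadjusted p under 0.05 between drug and DMSO. NDUFB9, NDUFB11, NDUFA13, NDUFA5, NDUFA6, NDUFAB1, NDUFA9, NDUFS5 and NDUFA10 were named after their values were seen. The shorter NRF-1 letters were chosen after the counts of the longer form were seen. Gene span was used in place of protein length, which had been planned. The number of arrays limits the precision.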

Additional observations from a re-analysis of the deposited data

How the results depend on the processing

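In the mean of the 3 treatments, the count of lower members lay between 33 and 39 outside of the fits without 1 array. Both medians stayed below 0, but that of subunits (-2.94) was -2.21 after cyclic loess and -2.49 after centring, and that of assembly factors (-1.81) was -1.10 and -1.36. The count of higher members was 1 (NDUFV3) in place of 0 without the second HuR-IP arrays of both DMSO and gemcitabine, in the mean and in gemcitabine. Within treatments, calls were less stable. In DMSO, 10 members lower became 16 with the replicate block and 0 with a trended and robust prior, with genes of a mean signal above 6, and with only the arrays compared. With that prior and with that filter, 0 genes of all tested were called in DMSO. Without each array in turn the range was 0 to 10. In olaparib, 21 became 35 with the replicate block and 10 with the trended and robust prior, with a range of 6 to 25 without each array. In gemcitabine, 10 became 21 with the block, 0 with that prior (which called 0 of all genes) and with only the arrays compared, and 17 without the 2 HuR-IP arrays, with a range of 0 to 10 without each array. The block changed no other count of members by over 1.5 times, but over all genes in the mean it raised the lower calls from 2512 to 3887 and the higher from 800 to 2214. With 1 array left in a group, that array is assumed to vary like the others.

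The olaparib median of subunits, -3.65, was -2.69 after cyclic loess, -2.90 after centring on the brighter genes and -3.37 with the mean of a gene's clusters, and ranged from -3.84 to -3.13 without each array. That of assembly factors, -2.14, was -1.11 after loess and -1.38 after centring (-2.46 to -1.49 without each array). For the assembly factors, the median difference between drug and DMSO was -0.074 after loess for olaparib (-1.25 to -0.26 without each array) and 0.13 for gemcitabine (-0.82 to 0.33). For the subunits it ranged from -0.98 to 0.068 for gemcitabine, and for olaparib, where it was -1.20, from -1.62 to -0.67. Loess moved the median of all genes by 0.04 and that of the members by 0.77, and centring moved both by 0.45.

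Signs turned for weakly changed members. NDUFAF7 was at 0.10 after loess and 0.072 after centring in the mean. In gemcitabine it was at 0.22 and 0.14, and between -0.95 and 0.46 without each array in turn. In DMSO it was at -0.66 without the 2 HuR-IP arrays, and between -0.66 and 0.97 without each array. NDUFAF6 in DMSO was at 0.066 with the mean of its clusters and between -1.53 and 0.042 without each array. NDUFAF1 in olaparib was at 0.26 after loess and 0.20 after centring. NDUFV3 ranged from -0.93 to 3.58 in DMSO and from -0.68 to 3.92 in gemcitabine without each array, with the low ends from leaving out HuR-IP array 1. The causes were not tested. Using clusters placed on a chromosome, an alternative chosen after seeing the data, left the counts in the mean, DMSO and gemcitabine as they were.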
